A study of Mus musculus with 14 samples.

Results

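The genes described here are 10 RNA-binding proteins that control splicing, stability or translation of messenger RNA in neurons, together with the broadly expressed partners of their families: *Elavl2*, *Elavl3* and *Elavl4*, *Nova1* and *Nova2*, *Rbfox1*, *Rbfox2* and *Rbfox3*, and *Ptbp1* and *Ptbp2*. They were taken by symbol through the RefSeq accessions, and all 10 were found among the 23152 rows of each RNA-seq table. The study compared mouse ES cells, motor neuron differentiation in culture and newborn spinal tissue with and without a disrupted *Taf9b* gene, which encodes a TAF9 paralog of the core promoter machinery. It comprised 11 RNA-seq libraries and 3 ChIP-seq libraries, each condition being represented by 1 library.

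The culture libraries labelled WT came from the JM8 clone and those labelled KO from the Taf9b_BG10 clone, both C57BL/6 ES cell lines, so that each genotype was 1 clone. In the KO clone (genotype TAF9B -/- in the labels) a LacZ-Neo cassette replaced the coding exons of the X-linked gene, a deletion that, per the study's methods, was checked by sequencing its DNA. Undifferentiated ES cells, grown on fibroblast feeders, and embryoid bodies (EBs) at days 2, 4 and 6 were sequenced from both clones. All EBs of days 4 and 6 followed the same protocol with retinoic acid and the smoothened agonist SAG, and the labels name day 4 neuronal progenitors and day 6 motor neurons. Newborn spinal column, the whole lumbar column with bone and muscle, was sequenced from C57BL/6 littermates labelled WT and KO, and newborn spinal cord from tissue labelled WT. TAF9B and RNA polymerase II (POL2) were mapped by ChIP-seq in EBs differentiated for 8 days from another wild type line, the HBG3 clone, and the IgG control was not used here.

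Values are FPKM, a level per transcript length and per sequenced fragment total, as deposited. The read depth behind them is not known, and no spread between replicates can be given, so no ratio below carries a test and none is attributed to the genotype. A gene was counted in a comparison when it was above 1 FPKM in at least 1 of both libraries, and was called past 2-fold when its ratio exceeded 2 in either direction. Tables were scaled separately, so ratios between stages combine tables and ratios of KO-labelled over WT-labelled libraries do not. In tissue and EBs, fewer cells of a type and less RNA per cell cannot be told apart.

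The targeted gene went against the labels in culture. The WT-labelled and KO-labelled ES cells held 0.537 and 3.06 FPKM of *Taf9b*, and the corresponding day 6 EBs 1.37 and 4.01 FPKM. In spinal column the values were 6.65 FPKM (labelled WT) and 3.31 FPKM (labelled KO), the direction of the label. Libraries are therefore named by their labels throughout, and each direction given below is that of the labels. Were the culture columns exchanged, every ratio of KO-labelled over WT-labelled culture libraries would change sign. Neither that nor reads from the targeted allele was tested. In the study's own qRT-PCR and western blots, *Taf9b* rose on differentiation in WT cells and not in KO cells. Its qRT-PCR and staining of day 6 EBs gave lower motor neuron markers and more *Pou5f1* and *Nanog* in KO cells. Those assays were not analysed here.

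As background, ELAVL2, ELAVL3 and ELAVL4 (HuB, HuC and HuD) are neuronal paralogs of the ubiquitous ELAVL1 and bind AU-rich elements that set mRNA stability and splicing. NOVA1 and NOVA2 bind YCAY clusters and switch exons of synaptic transcripts, and RBFOX proteins bind UGCAUG beside alternative exons, RBFOX3 being the neuronal nuclear antigen NeuN. PTBP1 represses neuronal exons in most cells, including an exon of *Ptbp2* itself without which the *Ptbp2* transcript is degraded, and PTBP2 takes its place in young neurons. Gene level FPKM measures transcript abundance, not splicing.

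The 3 neuronal *Elavl* genes differed in their ES cell level and lay close together at day 6 in the library labelled WT, but not in that labelled KO. *Elavl2* was already at 11.1 FPKM in WT-labelled and 10.5 FPKM in KO-labelled ES cells. Along EB days 2, 4 and 6 it was at 11.4, 13.1 and 21.1 FPKM in the libraries labelled WT and at 8.89, 6.90 and 1.98 FPKM in those labelled KO. The WT-labelled series thus stayed between its ES cell level and about double that level, while in the KO-labelled series the day 6 library was the lowest of the 4. At day 6 the KO-labelled level was 10.7-fold lower (log2 ratio -3.42), with day 4 at -0.93. In spinal column *Elavl2* was at 14.0 FPKM (labelled WT) and 7.22 FPKM (labelled KO), a row that carries the Cuffdiff status FAIL, and spinal cord held 24.5 FPKM.

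*Elavl3* was low in both ES cell libraries, at 2.30 FPKM (labelled WT) and 2.33 FPKM (labelled KO). At days 2, 4 and 6 it was at 2.75, 3.29 and 20.6 FPKM in the libraries labelled WT, and at 2.71, 1.41 and 0.959 FPKM in those labelled KO. Between day 4 and day 6 the WT-labelled level was 6.25-fold higher, whereas the KO-labelled level moved by -0.55 on the log2 scale. The day 6 libraries differed 21.4-fold (log2 ratio -4.42). Spinal column held 32.2 FPKM (labelled WT) and 11.1 FPKM (labelled KO), a log2 ratio of -1.53, and spinal cord held 82.7 FPKM, the highest value of any of the 10 genes in that library.

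*Elavl4* showed the widest gap of the group. ES cells held 0.723 FPKM (labelled WT) and 0.647 FPKM (labelled KO). The libraries labelled WT held 0.452, 2.73 and 25.6 FPKM at days 2, 4 and 6, against 0.304, 0.880 and 0.552 FPKM in those labelled KO. At day 4 the log2 ratio was -1.63 and at day 6 it was -5.54, a 46.4-fold difference in which the lower value is under 1 FPKM. In spinal column the values were 9.12 FPKM (labelled WT) and 4.35 FPKM (labelled KO), and in spinal cord 17.2 FPKM, which makes the WT-labelled day 6 EBs the library with the highest *Elavl4* of all 11.

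Set against the ubiquitous *Elavl1*, which stayed between 29.4 and 38.1 FPKM in all ES and EB libraries, the neuronal genes made up 31.7% of the summed *Elavl1* to *Elavl4* FPKM in ES cells labelled WT and 31.4% in those labelled KO. This share was 66.4% at day 6 in the library labelled WT and 10.6% in that labelled KO. Spinal column reached 87.6% (labelled WT) and 75.9% (labelled KO), and spinal cord 93.0%. *Elavl1* was lower in tissue, at 7.79, 7.22 and 9.30 FPKM, and the summed neuronal *Elavl* level of the WT-labelled column, 55.3 FPKM, was below the 67.3 FPKM of WT-labelled day 6 EBs, so that its higher share comes with less *Elavl1*. Within the neuronal trio, *Elavl2* took 78.6% in ES cells labelled WT and 31.4% at day 6 labelled WT, where *Elavl4* took 38.0%, while in spinal cord *Elavl3* took 66.5%.

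**Figure D1:**
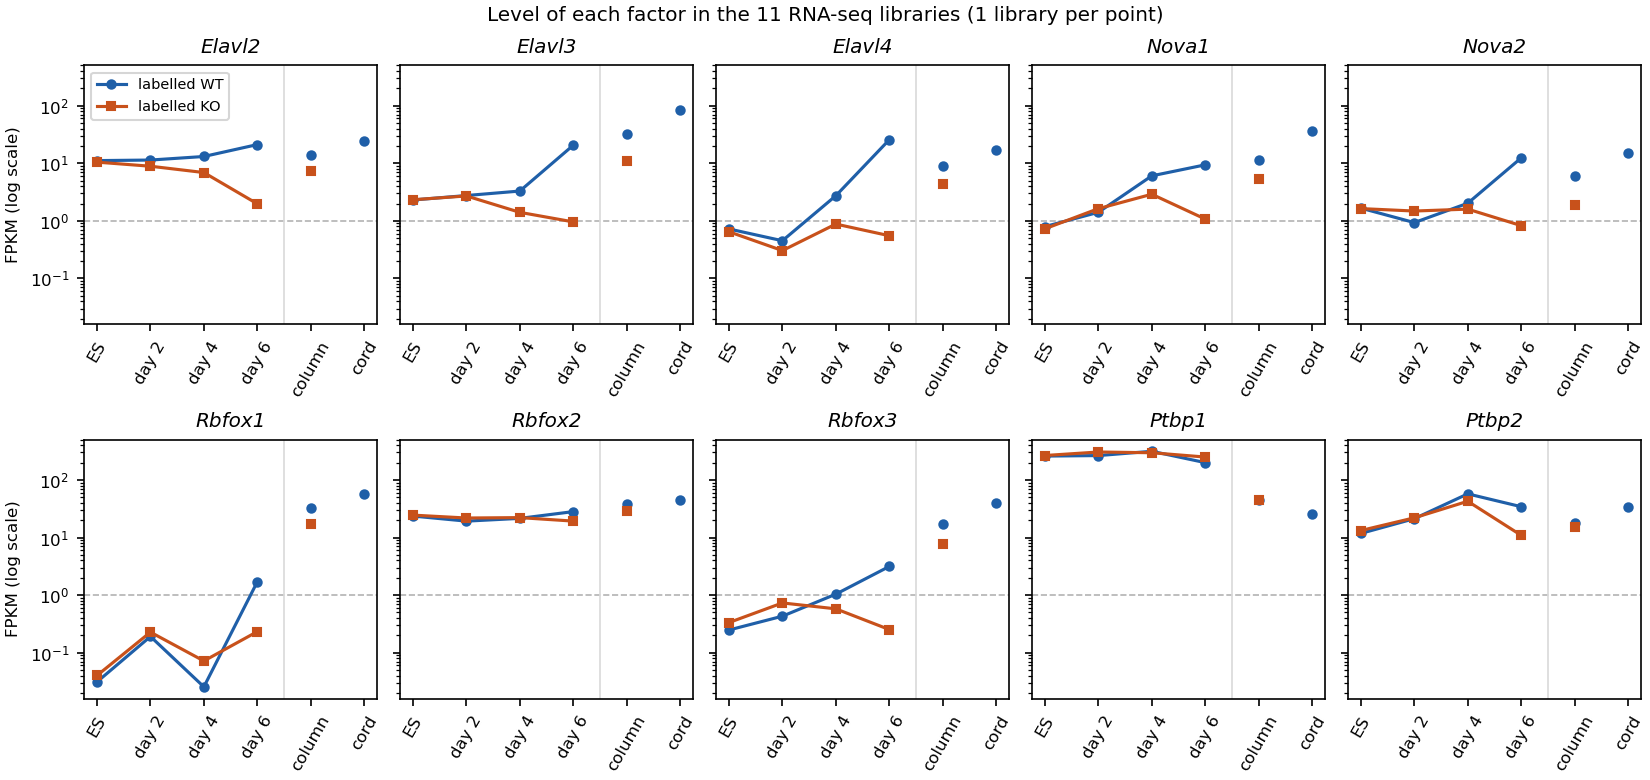
FPKM of each gene (y axis, log scale, 1 library per point) in ES cells, EBs of days 2, 4 and 6, newborn spinal column and newborn spinal cord (x axis), with libraries labelled WT as blue circles, those labelled KO as orange squares and 1 FPKM as a dashed line. For *Elavl3*, *Elavl4*, *Nova2* and *Rbfox3* the 2 series are furthest apart at day 6, where the library labelled KO lies under 1 FPKM.

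A TAF9B peak lay at a start site of *Elavl2* in the 8 day EBs. The locus of *Elavl2* in the tables is chr4:90917457-91066675 on the minus strand (mm9), and the peak at chr4:91042991-91043408 had its midpoint 45 bp upstream of a start site annotated by GENCODE, 23.5 kb into the locus. Its MACS score was 218, at percentile 92.8 of the TAF9B list, and a POL2 peak with a score of 229 overlapped it. The 2 TAF9B peaks within 50 kb of *Elavl3* (chr9:21819449-21856467) lay 18.8 and 33.4 kb upstream of its start and nearer to *Zfp653* and *Ecsit*. The TAF9B peak upstream of *Elavl4* (chr4:109876342-110024516), 45.9 kb from its start, lay 27 bp from a start site of *Agbl4*. POL2 peaks were found within 500 bp of a start site of all 3 genes.

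The *Elavl2* promoter peak is shown because it is the highest scoring TAF9B peak whose nearest start site belongs to one of the 10 genes. The 200 bases are chr4:91043182-91043381, read 5′ to 3′ on the minus strand from the mm9 genome, the strand of the gene. Capitals in this and the sequences below mark every CANNTG (E-box), the 6 letters recognised by basic helix-loop-helix factors such as OLIG2 and NEUROG2. No CANNTG occurs in this stretch.
*Elavl2*: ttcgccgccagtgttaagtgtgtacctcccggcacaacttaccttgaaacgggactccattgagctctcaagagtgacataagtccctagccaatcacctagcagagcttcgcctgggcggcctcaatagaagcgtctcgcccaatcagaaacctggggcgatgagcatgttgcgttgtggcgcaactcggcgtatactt

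*Nova1* and *Nova2* were both near or under 2 FPKM in ES cells and parted with the label at day 6. *Nova1* was at 0.795 FPKM in ES cells labelled WT and 0.729 FPKM in those labelled KO. At days 2, 4 and 6 the libraries labelled WT held 1.41, 6.05 and 9.39 FPKM, and those labelled KO held 1.63, 2.90 and 1.07 FPKM. In the KO-labelled series the level was thus highest at day 4 and 2.70-fold lower 2 days later. The log2 ratio was -1.06 at day 4 and -3.13 at day 6. In spinal column *Nova1* was at 11.2 FPKM (labelled WT) and 5.44 FPKM (labelled KO), a ratio of -1.05, and in spinal cord at 35.7 FPKM.

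*Nova2* was at 1.66 FPKM in ES cells labelled WT and 1.63 FPKM in those labelled KO. The WT-labelled EBs held 0.933, 2.02 and 12.4 FPKM at days 2, 4 and 6, and the KO-labelled EBs 1.48, 1.60 and 0.827 FPKM. The main step of *Nova2* in the WT-labelled series came later than that of *Nova1*: from day 4 to day 6 *Nova2* was 6.13-fold higher and *Nova1* 1.55-fold higher, and from day 2 to day 4 *Nova1* was 4.30-fold higher and *Nova2* 2.17-fold higher. At day 6 the log2 ratio of *Nova2* was -3.91. Spinal column held 6.01 FPKM (labelled WT) and 1.92 FPKM (labelled KO), at -1.65 the lowest ratio of the 10 genes in that tissue, and spinal cord held 15.4 FPKM. The ratio of *Nova1* over *Nova2* was 0.758 in day 6 EBs labelled WT and 2.32 in spinal cord.

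The single TAF9B peak near *Nova1* (chr12:47795504-47919762, minus strand) lay at chr12:47920487-47920662, 812 bp upstream of the start site and between genes, with a score of 60.4 (percentile 24.5), and overlapped 1 of 3 POL2 peaks. Of the 5 TAF9B peaks within 50 kb of *Nova2* (chr7:19511237-19550668, plus strand), the nearest lay 1389 bp upstream of its start site with a score of 50.7 (percentile 1.32). Another lay in an intron 25.2 kb downstream of the start, and the remaining 3 were nearer to *Mypop* and *Irf2bp1*. *Nova2* had 1 POL2 peak, 103 bp downstream of its start site. The upstream peaks of both genes are shown whole, to set beside the *Elavl2* promoter. The *Nova1* sequence is chr12:47920487-47920662 on the minus strand and the *Nova2* sequence chr7:19509229-19509390 on the plus strand (mm9). Each holds 1 E-box, which reads CAGCTG in the first and CAGATG in the second.
*Nova1*: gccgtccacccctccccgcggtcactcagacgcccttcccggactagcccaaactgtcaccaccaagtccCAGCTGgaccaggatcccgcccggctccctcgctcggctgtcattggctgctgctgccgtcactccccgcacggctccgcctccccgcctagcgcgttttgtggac
*Nova2*: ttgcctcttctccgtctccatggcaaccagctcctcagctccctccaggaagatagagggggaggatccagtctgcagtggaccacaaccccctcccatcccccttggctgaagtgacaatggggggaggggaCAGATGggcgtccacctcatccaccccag

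The *Rbfox* genes comprise *Rbfox2*, present at a similar level in all culture libraries, and *Rbfox1* and *Rbfox3*, low in ES cells. *Rbfox2* was at 23.6 FPKM in ES cells labelled WT and 24.5 FPKM in those labelled KO. At days 2, 4 and 6 it was at 19.3, 21.5 and 28.2 FPKM in the libraries labelled WT and at 21.8, 22.2 and 19.3 FPKM in those labelled KO. Spinal column held 37.8 FPKM (labelled WT) and 28.6 FPKM (labelled KO), and spinal cord 44.6 FPKM. The log2 ratio of KO-labelled over WT-labelled libraries was -0.55 at day 6 and -0.40 in spinal column, neither past 2-fold.

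*Rbfox3* was at 0.248 FPKM in ES cells labelled WT and 0.334 FPKM in those labelled KO. The libraries labelled WT held 0.430, 1.04 and 3.14 FPKM at days 2, 4 and 6, and those labelled KO 0.731, 0.578 and 0.252 FPKM. The day 6 ratio was -3.64 (12.4-fold lower). In spinal column the values were 17.2 FPKM (labelled WT) and 7.74 FPKM (labelled KO), a ratio of -1.15, and spinal cord held 40.2 FPKM. The tissue levels lay well above those of any EB library, WT-labelled day 6 included.

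*Rbfox1* was nearly absent from culture. It was at 0.0311 and 0.0402 FPKM in ES cells labelled WT and KO, and the Cuffdiff status of its row was NOTEST in ES cells and at days 2 and 4. Values at days 2 and 4 ranged from 0.0255 to 0.227 FPKM over the 4 libraries. Day 6 EBs held 1.70 FPKM (labelled WT) and 0.232 FPKM (labelled KO), a log2 ratio of -2.87. Spinal column held 32.3 FPKM (labelled WT) and 17.5 FPKM (labelled KO), a ratio of -0.88, and spinal cord 57.6 FPKM. *Rbfox1* and *Rbfox3* together made up 1.17% of the summed *Rbfox* FPKM in ES cells labelled WT, 14.7% at day 6 labelled WT and 2.45% at day 6 labelled KO. In tissue the share was 56.7% and 46.9% in spinal column labelled WT and KO and 68.7% in spinal cord. The column also holds muscle, and which of its cells held *Rbfox1* cannot be told from these libraries.

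*Rbfox2* was the single *Rbfox* gene with a TAF9B peak within 500 bp of its own start site. That peak, chr15:77137337-77137537, had its midpoint 47 bp downstream of the start, in an exon of the gene (locus chr15:76909420-77137483, minus strand), with a score of 89.2 (percentile 54.3), and overlapped a POL2 peak with a score of 257. A pair of further TAF9B peaks lay in introns of *Rbfox2*. The locus of *Rbfox1* spans 1528 kb (chr16:5884886-7412573, plus strand), and 4 TAF9B peaks lay inside it, without a POL2 peak within 50 kb. The highest of the 4, chr16:6791854-6792069, had a score of 165 (percentile 85.0) and lay 17.4 kb upstream of the nearest start site in GENCODE, whose annotation of the gene begins further downstream than the locus of the tables does. At *Rbfox3* (chr11:118351074-118770886, minus strand) 1 TAF9B peak lay in an intron, with a score of 60.6 (percentile 24.6), and the other, with a score of 167, lay 40 bp from a start site of *Engase*.

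A sequence is shown for each gene of the family, as the position of TAF9B differed among them. The first is the 54 bases of the *Rbfox2* peak upstream of the start site, chr15:77137484-77137537 on the minus strand. The second is the central 200 bases of the highest peak in the *Rbfox1* locus, chr16:6791862-6792061 on the plus strand, and the third is the central 200 bases of the intronic *Rbfox3* peak, chr11:118606153-118606352 on the minus strand (all mm9). CANNTG occurs at 4 positions in the *Rbfox1* sequence, at 2 in the *Rbfox3* sequence and at none in the *Rbfox2* sequence.
*Rbfox2*: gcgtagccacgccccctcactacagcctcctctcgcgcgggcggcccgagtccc
*Rbfox1*: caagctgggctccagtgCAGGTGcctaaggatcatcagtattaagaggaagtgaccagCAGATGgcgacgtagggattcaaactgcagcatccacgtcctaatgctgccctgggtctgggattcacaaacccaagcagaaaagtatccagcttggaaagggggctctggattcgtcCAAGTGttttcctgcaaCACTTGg
*Rbfox3*: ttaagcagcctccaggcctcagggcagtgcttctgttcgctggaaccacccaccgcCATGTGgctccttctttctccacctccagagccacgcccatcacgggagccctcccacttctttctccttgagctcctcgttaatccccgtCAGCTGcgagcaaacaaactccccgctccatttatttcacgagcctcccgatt

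*Ptbp1* was by far the most abundant of the 10 genes in culture and did not part with the label. It was at 260 FPKM in ES cells labelled WT and 266 FPKM in those labelled KO. At days 2, 4 and 6 it was at 265, 315 and 199.98 FPKM in the libraries labelled WT and at 306, 297 and 250 FPKM in those labelled KO. The day 6 ratio was 0.32 on the log2 scale, the single positive one of the 10 genes at that stage. Spinal column held 44.4 FPKM (labelled WT) and 44.3 FPKM (labelled KO), and spinal cord 25.7 FPKM, against 283 FPKM for ES cells in the same table (log2 ratio -3.46). The locus given for *Ptbp1* (chr10:79314122-79337379, plus strand) is shared by *Plppr3*, a gene with neuronal expression, and *E130317F20Rik*, so reads of these overlapping genes could not be checked for separation.

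*Ptbp2* was at 11.8 FPKM in ES cells labelled WT and 13.2 FPKM in those labelled KO. The libraries labelled WT held 21.2, 57.3 and 34.3 FPKM at days 2, 4 and 6, and those labelled KO held 22.0, 42.7 and 10.9 FPKM. Both series were thus highest at day 4, and from day 4 to day 6 the log2 ratio was -1.96 in the KO-labelled series and -0.74 in the WT-labelled series. At day 6 the ratio between the libraries was -1.65, and at day 4 it was -0.43. Spinal column held 17.7 FPKM (labelled WT) and 15.4 FPKM (labelled KO), and spinal cord 33.3 FPKM.

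The ratio of *Ptbp2* over *Ptbp1* within a library does not depend on the scaling between tables. It was 0.0454 in ES cells labelled WT and 0.0498 in those labelled KO, and 0.182 and 0.144 at day 4. At day 6 it was 0.172 in the library labelled WT and 0.0437 in that labelled KO, the latter close to the ES cell values. In spinal column it was 0.399 and 0.347, and spinal cord was the single library with more *Ptbp2* than *Ptbp1*, at a ratio of 1.30.

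**Figure D2:**
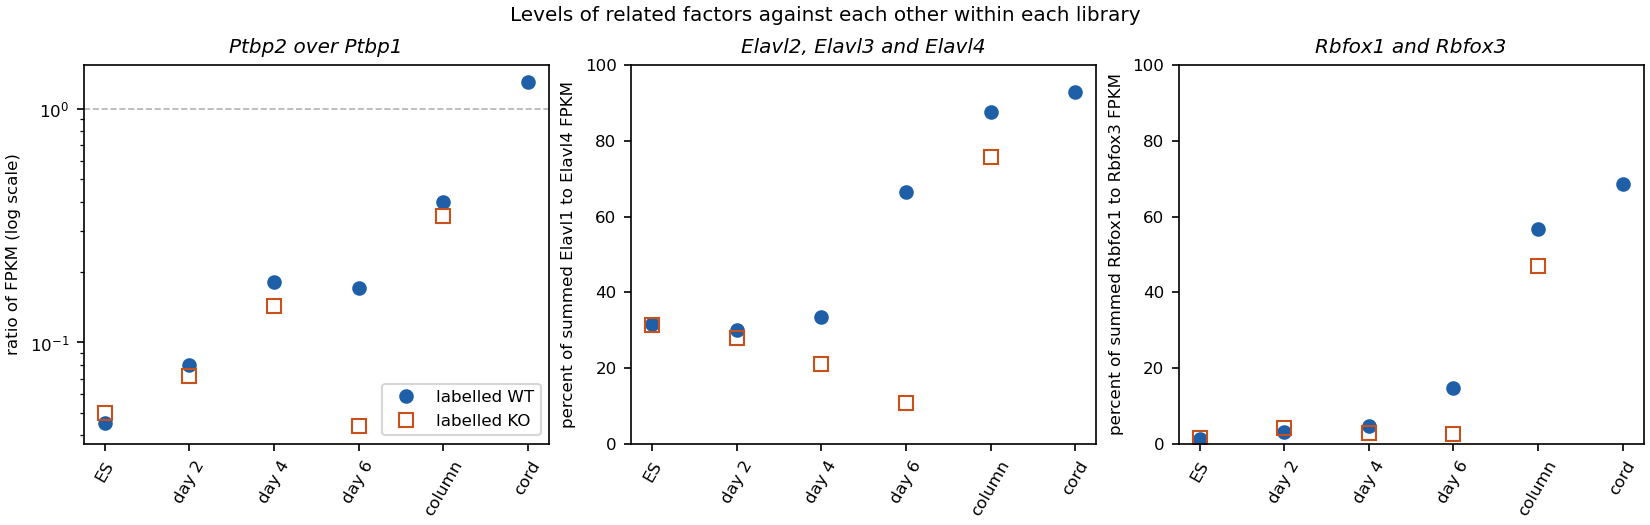
Left, the ratio of *Ptbp2* over *Ptbp1* FPKM (log scale). Middle and right, the percent of summed FPKM taken by *Elavl2*, *Elavl3* and *Elavl4* among *Elavl1* to *Elavl4* and by *Rbfox1* and *Rbfox3* among the *Rbfox* genes, each point being 1 library labelled WT (filled circle) or KO (open square). At day 6 the library labelled KO lies at a ratio of 0.0437 against 0.172, and at a neuronal *Elavl* share of 10.6% against 66.4%.

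A TAF9B peak with a low score of 50.6 (percentile 1.17) lay 173 bp upstream of a *Ptbp1* start site, in an exon of *E130317F20Rik*, under a POL2 peak with a score of 784 (percentile 97.7). The other TAF9B peak within 50 kb of the locus lay in an intron of *Palm*. *Ptbp2* (chr3:119421660-119486306, minus strand) was the single gene of the 10 without a TAF9B peak within 50 kb, and its 1 POL2 peak lay 156 bp downstream of its start site. The whole *Ptbp1* promoter peak is shown because this gene kept a high level in every ES and EB library. It is chr10:79316926-79317073 on the plus strand (mm9) and holds no CANNTG.
*Ptbp1*: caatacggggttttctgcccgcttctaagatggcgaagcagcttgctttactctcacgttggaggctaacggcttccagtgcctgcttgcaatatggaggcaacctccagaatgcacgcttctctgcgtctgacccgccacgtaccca

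The first set of comparisons asks how the 10 genes differ between the library labelled KO and that labelled WT at each stage. In ES cells 0 of 6 counted genes were past 2-fold, where 0.59% of all counted genes were lower and 0.54% higher. At day 2 it was 0 of 7, against 1.4% lower and 1.19% higher. At day 4 3 of 9 were lower (*Elavl3*, *Elavl4* and *Nova1*), against 4.46% of all, and 0 were higher, against 12.1%. At day 6 8 of 10 were lower, all but *Ptbp1* and *Rbfox2*, against 9.93% of all, and 0 were higher, against 10.5%. For 5 of these 8 the library labelled KO was under 1 FPKM. In spinal column 5 of 10 were lower (*Elavl3*, *Elavl4*, *Nova1*, *Nova2* and *Rbfox3*), against 8.54%, and 0 were higher, against 9.05%. The median log2 ratio over the 10 genes stood at 0.02 for ES cells, 0.19 for day 2, -0.64 for day 4, -3.27 for day 6 and -0.999 in spinal column, where the median of all counted genes stayed between -0.03 and 0.06.

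**Figure D3:**
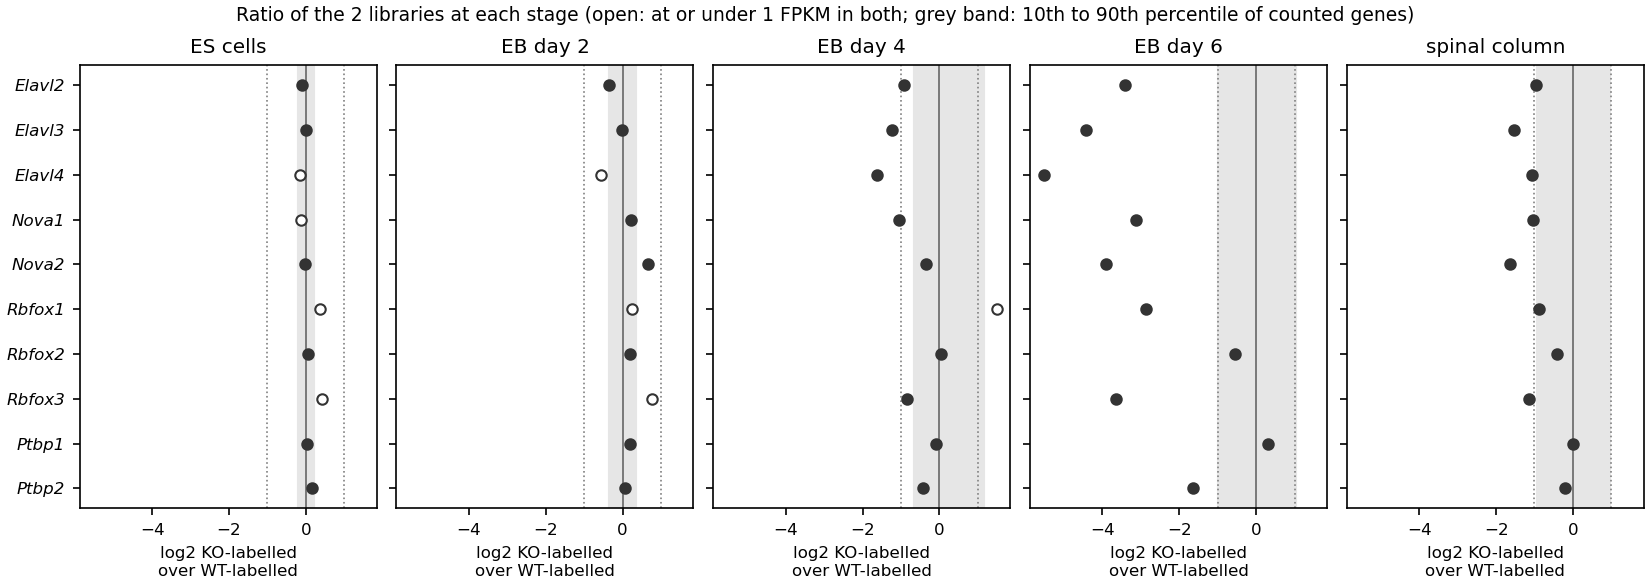
Log2 ratio of the library labelled KO over that labelled WT (x axis) for the 10 genes (y axis) in ES cells, EBs and spinal column, with open points for genes at or under 1 FPKM in both libraries, dotted lines at 2-fold and a grey band from the 10th to the 90th percentile of all counted genes. At day 6 8 of the 10 points lie left of the band, between -1.65 and -5.54, and *Ptbp1* and *Rbfox2* lie inside it.

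Markers of the cell types moved with these ratios. At day 6, 9 of 10 neuron markers were past 2-fold lower in the KO-labelled library, with a median of -3.73 and a range from -4.76 (*Snap25*) to -0.79 (*Syn1*), and their summed level was 1139 FPKM (labelled WT) and 145 FPKM (labelled KO). *Tubb3*, the neuronal tubulin, was at 561 and 41.3 FPKM. Of the 6 neural progenitor markers 6 were lower, summing to 123 and 19.2 FPKM. Of the 6 pluripotency markers 5 were past 2-fold higher, summing to 1368 and 3966 FPKM, and of the 4 markers of simple epithelium 4 were higher, summing to 172 and 1095 FPKM. No marker of these 4 lists was at 0. The ratio of *Elavl4* differed from the median neuron marker by -1.81 log2 units and that of *Ptbp2* by 2.08, and *Elavl2*, *Elavl3*, *Nova1*, *Nova2*, *Rbfox1* and *Rbfox3* lay within 1 unit of it. The part of cell composition in the ratios of the 10 genes was not tested.

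At day 4 the order was different. Of the 7 counted neuron markers 0 were past 2-fold lower and 1 higher, and the median of the list was 0.28, with summed levels of 49.1 FPKM (labelled WT) and 66.9 FPKM (labelled KO), while 5 of 6 progenitor markers were lower (median -2.78, sums 334 and 71.1 FPKM) and 6 of 6 pluripotency markers higher (sums 108 and 799 FPKM). The 10 neuron markers ranged from -1.26 for *Syt1*, not counted at 0.275 and 0.115 FPKM, to 1.83 for *Nefl*. *Elavl3*, *Elavl4* and *Nova1* stood at -1.23, -1.63 and -1.06, and with 1 FPKM added to every value at -0.84, -0.99 and -0.85, where none of them passed 2-fold. The part of the progenitor and pluripotency markers in these ratios was not tested.

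In spinal column 7 of 10 neuron markers were lower (median -1.25, from -1.87 for *Nefm* to -0.47 for *Stmn2*), with summed levels of 1234 and 654 FPKM in the libraries labelled WT and KO. The 5 glial markers had a median of -0.58 with 0 past 2-fold, and the 5 cartilage markers a median of -0.54 with 0 past 2-fold. Of the 3 endothelial markers 0 were past 2-fold, and *Alas2*, the erythroid marker, was at 17.0 and 29.6 FPKM. Of the 6 neural progenitor markers 1, *Nkx6-1* at -1.72, was past 2-fold lower (median -0.77). Of the 4 markers of simple epithelium 2 were past 2-fold higher (median 1.24, *Epcam* highest at 3.27), with summed levels of 7.92 and 19.5 FPKM, and the epithelial splicing factor *Esrp1* was at 0.0565 and 1.97 FPKM. *Esrp2*, its paralog, was listed at 0 (labelled WT) and at 2.20 FPKM (labelled KO). *Rbm47*, another splicing factor of epithelia, was at 0.599 FPKM (labelled WT) and 0.560 FPKM (labelled KO), not higher in the latter. Skeletal muscle markers summed to 6848 and 5575 FPKM, with 2 of 6 listed at 0 in each library, among them *Acta1* in both, so that this list cannot be compared. The whole column holds muscle and bone beside the cord, and the part of dissection, or of these markers, in the ratios of the 10 genes was not tested. *Ptbp1* and *Ptbp2* stood at -0.002 and -0.20 in this comparison.

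The second set of comparisons follows the WT-labelled stages. From ES cells to day 2 0 of 7 counted genes passed 2-fold, against 7.96% lower and 5.26% higher among all genes. From day 2 to day 4 5 of 9 were higher (*Elavl4*, *Nova1*, *Nova2*, *Rbfox3* and *Ptbp2*), against 15.6%. Meanwhile 6 of 6 progenitor markers were higher (median 7.02) and 6 of 6 pluripotency markers lower (median -4.31). Of 7 counted neuron markers 0 were higher and 4 lower (list median -0.58). The part of these markers in the ratios of the 10 genes was not tested. From day 4 to day 6 5 of 10 were higher (*Elavl3*, *Elavl4*, *Nova2*, *Rbfox1* and *Rbfox3*), against 17.0%. In that step 10 of 10 neuron markers were higher (median 4.08), 4 of 6 progenitor markers lower, and 6 of 6 pluripotency markers higher (median 3.69, sums 108 and 1368 FPKM at days 4 and 6), and the part of these in the ratios of the 10 genes was not tested. From ES cells to day 6 7 of 10 were higher, against 23.1%, the exceptions being *Elavl2*, *Rbfox2* and *Ptbp1*. *Rbfox1*, at 0.0311 FPKM in ES cells and 1.70 FPKM at day 6, had a ratio of 5.77, and *Elavl4* one of 5.15. With 1 FPKM added these became 1.39 and 3.95, so that their order depends on the low ES value of *Rbfox1*.

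The third set follows the KO-labelled stages. *Nova1* alone passed 2-fold higher from ES cells to day 2, 1 of 7 against 6.01%. From day 2 to day 4 0 of 7 passed, against 7.74% lower and 15.4% higher. From day 4 to day 6 3 of 7 were lower (*Elavl2*, *Nova1* and *Ptbp2*), against 11.1%, and 0 higher, against 12.4%. From ES cells to day 6 2 of 7 were lower (*Elavl2* at -2.40 and *Elavl3* at -1.28), against 9.56%, and 0 higher, against 16.9%. With so few counted genes, these upward shares amount to about 1 gene at most in each comparison. From day 4 to day 6 5 of 6 progenitor markers were lower (median -1.90), 6 of 6 pluripotency markers higher (median 2.32), and of 7 counted neuron markers 3 were higher and 2 lower. The part of these markers in the ratios of the 10 genes was not tested. The WT-labelled and KO-labelled series each rest on 1 clone, and the difference between them was not tested.

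The last comparison sets spinal cord beside ES cells within 1 table. Of the 10 genes 8 were higher, against 30.4% of all, and 1, *Ptbp1*, was lower, against 35.7%. *Rbfox1* had the largest log2 ratio, 10.73, from an ES cell level of 0.0339 FPKM, followed by *Rbfox3* with 7.22, *Nova1* with 5.37 and *Elavl3* with 5.04. With 1 FPKM added these became 5.82, 5.02, 4.30 and 4.58, so that *Elavl3* then stood above *Nova1*. *Elavl2* passed narrowly, at 1.01 (0.96 with 1 FPKM added), and *Rbfox2*, at 0.79, did not. The median was 3.77 over the 10 genes and -0.26 over all counted genes. In the same comparison 10 of 10 neuron markers (median 5.09) and 5 of 5 glial markers (median 5.26) were higher. All 6 pluripotency markers were lower. The part of cell composition in the ratios of the 10 genes was not tested.

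Other RNA-binding proteins of neurons, a list of 10 genes (*Celf2* to *Celf6*, *Srrm3*, *Srrm4*, *Khdrbs2*, *Khdrbs3* and *Msi1*), were compared in the same way. At day 4 3 of 7 counted genes were past 2-fold lower in the library labelled KO (*Celf3* at -2.09, *Srrm4* at -1.56 and *Msi1* at -1.02) and 0 higher, as 3 of 9 of the 10 genes were, while the list median was 0.03, with 5 genes above 0 and 5 below. In KO-labelled day 6 EBs 6 of 9 counted genes were lower and 0 higher, with a list median of -2.22. *Celf3*, a splicing regulator of the CELF family, was at 23.4 and 0.404 FPKM (log2 ratio -5.86), the lowest of the list, and *Celf5*, at 3.41 and 2.89 FPKM, was the highest (-0.24). *Srrm4*, which promotes neuronal microexons, was at 4.11 and 0.294 FPKM. In spinal column 6 of 10 were lower (median -1.08), from *Srrm4* at -2.77 to *Khdrbs3* at 0.04. In spinal cord 8 of 10 were higher than in ES cells, up to 9.28 for *Khdrbs2*.

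The broadly expressed paralogs, 12 genes with *Elavl1*, *Ptbp3* and the *Mbnl* genes among them, had a median of 0.08 at day 6. Of these 0 were lower and 2 higher, up to 2.10 for *Mbnl3*, and the lowest was *Khdrbs1* at -0.47. The 12 SR proteins, general splicing activators, had a median of -0.22 at day 6 with 0 past 2-fold, from *Srsf9* (-0.60) to *Srsf10* (0.01). The 12 hnRNPs, the family to which the PTB proteins also belong, had a median of -0.34 with 0 past 2-fold, from *Hnrnph1* (-0.88) to *Hnrnpf* (0.15). At day 4 the medians were -0.50 for the SR proteins, with 11 of 12 below 0, and -0.54 for the hnRNPs, with 12 of 12 below 0, near the -0.64 of the 10 genes, and 0 of either list was past 2-fold. In spinal cord against ES cells these 3 lists went the other way from the neuronal ones, with 9 of 12 paralogs, 11 of 12 SR proteins and 10 of 12 hnRNPs lower, the lowest being *Mbnl3* (-4.23), *Srsf7* (-3.53) and *Hnrnpa3* (-3.26).

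Splicing factors of epithelia were higher in the KO-labelled EBs of days 4 and 6. *Esrp1*, *Esrp2* and *Rbm47* were all past 2-fold higher in KO-labelled EBs at day 4, with a median of 2.42 and *Rbm47* highest at 2.72, and at day 6, with a median of 1.46. *Esrp1* was at 24.1 FPKM in ES cells labelled WT, and at 4.85 and 26.0 FPKM in day 4 EBs labelled WT and KO. Markers of simple epithelium moved the same way, 4 of 4 at both days. They were already high in ES cells, summing to 451 FPKM (labelled WT). Their sums were 93.8 and 419 FPKM at day 4 and 172 and 1095 FPKM at day 6, labelled WT and KO. *Rest*, the repressor of neuronal genes in other cells, was at 35.8 FPKM in ES cells labelled WT, 4.58 and 10.7 FPKM at day 4 and 2.63 and 6.54 FPKM at day 6 labelled WT and KO, past 2-fold higher in the library labelled KO at both days.

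Of transcripts known as targets of these proteins, 3 of 5 counted were lower in KO-labelled day 6 EBs and 0 higher. *Gap43*, a growth cone protein whose mRNA ELAVL4 stabilises, was at 184 and 7.82 FPKM (log2 ratio -4.55). *Dlg4*, the postsynaptic scaffold PSD-95 whose mRNA is spared from decay when PTB proteins recede, was at 9.57 and 2.99 FPKM in EBs, and at 43.3 and 20.2 FPKM in spinal column. *Agrn*, of which NOVA switches neuronal exons, was the highest at 0.54, while in spinal column it was the lowest of the list at -1.12 (22.7 and 10.4 FPKM). *Glra2*, a glycine receptor subunit with NOVA regulated exons, was under 1 FPKM in every ES and EB library. The day 6 ratio of *Gap43* lay within the range of the neuron markers, from -4.76 to -0.79. The part of the 10 genes, or of cell composition, in the levels of these transcripts was not tested.

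In the 8 day EBs, TAF9B and POL2 peaks near the 10 genes numbered 21 and 23. A TAF9B peak lay within 50 kb of 9 of 10 genes, against 73.8% of all genes above 1 FPKM at day 6, and a POL2 peak of 9 of 10, against 79.3%. Of the 10 loci 6 exceed 100 kb, and all 6 had a TAF9B peak, against 74.1% of long loci, and 5 had a POL2 peak, against 68.4%. Within 500 bp of a start site of the gene itself, POL2 was found at 9 of 10 genes, against 53.8%, and TAF9B at 3 of 10 (*Elavl2*, *Rbfox2* and *Ptbp1*), against 30.8%. For 13 of the 21 TAF9B peaks the nearest start site was that of the gene, and for the other 8 that of a neighbour. Of the 21 peaks 6 overlapped a POL2 peak by at least 1 bp, against 33.3% of the 10415 TAF9B peaks, and 10 scored below the median of that list (83.3).

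**Figure D4:**
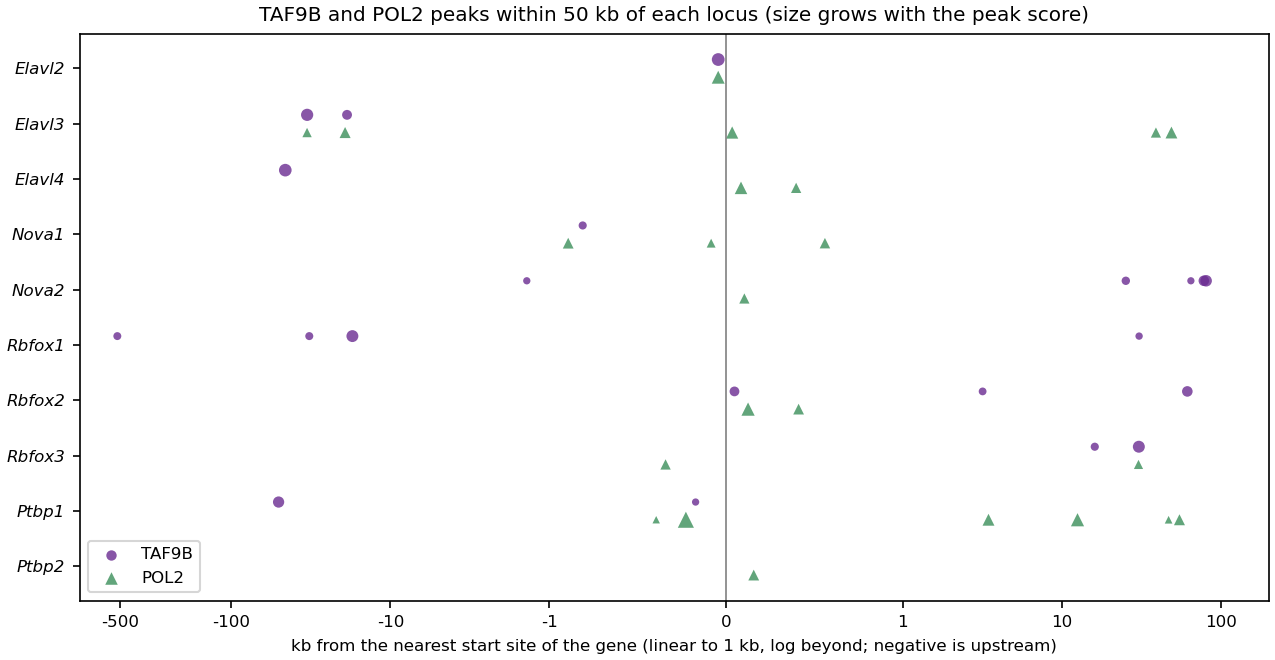
Position of each TAF9B peak (purple circle) and POL2 peak (green triangle) within 50 kb of a locus, as kb from the nearest start site of the gene (x axis, linear to 1 kb and logarithmic beyond, negative upstream), symbol size growing with the MACS score. POL2 lies within 500 bp of a start site for all genes but *Rbfox1*, and TAF9B for *Elavl2*, *Rbfox2* and *Ptbp1*.

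In windows of 150 bp centred on the peaks, CANNTG was present in 12 of 21 near the 10 genes and in 50.3% of all 10402 TAF9B windows on assembled chromosomes. GGGCGG, the GC box bound by SP factors, searched on both strands, was present in 7 of 21 against 27.1%. TAATTA, the core bound by homeodomain factors such as LHX3, was present in 1 of 21 against 2.27%. Matches of different motifs may share bases. These are matches of letters and no statement about binding.

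Genes with the most similar pattern were named by the root mean square difference of centred log2(FPKM + 1) over the 11 libraries, among 15796 genes above 1 FPKM in at least 1 of them. For *Elavl4* these were *Celf3* (0.34), *Slc18a3* (0.37), the vesicular acetylcholine transporter, and *Slc10a4* (0.39). For *Elavl3* they included *Slc1a2* (0.41) and *Scrt1* (0.43), and for *Elavl2* they were *Celsr3* (0.43), *Plxna3* (0.44) and *Pcbp3* (0.46). *Nova1* was followed by *Arhgap33* (0.23), *Clstn2* and *Ephb1* (both 0.26), and *Nova2* by *Srrm4* (0.35), *St6galnac5* and *Mpp2* (both 0.36). Genes near *Rbfox1* included *Atp6v1g2* (0.23) and *Syt1* (0.29), and *Rbfox3* was nearest to *Diras1* (0.14), *Gdap1* (0.19) and *Dclk1* (0.22). *Ptbp1* was nearest to *Cenpn* (0.17), *Ndc80* and *Hnrnpf* (both 0.18), and *Ptbp2* to *Mycl* (0.25), *Gm2897* (0.26) and *Gm3696* (0.28). For *Rbfox2*, whose whole range was 1.17 log2 units, the nearest were *F730043M19Rik* (0.09), *Asb1* (0.11) and *Ceacam16* (0.12).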

How the data were processed

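RNA-seq was measured in 11 libraries and ChIP-seq in 3, of which the TAF9B and POL2 peak lists were used. The FPKM values were made by the authors with TopHat and Cuffdiff against RefSeq and were used as deposited. Peaks were mapped with Bowtie to mm9 and called by MACS, and the deposited score of each peak is the authors' MACS score. Tool versions are not given in the sources used here. The deposited tables also hold the authors' log2 fold changes, test statistics and p-values, computed from 1 library per condition, which were not used.

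Symbols were matched through RefSeq accessions, with 320 of 23152 rows left without one. Rows were joined between tables by first accession and locus, 43 ambiguous rows being used within a table only. Counting past 2-fold was run on simulated libraries as a check of the code only. Changes were simulated only in genes above the 1 FPKM limit, with equal noise at every level. The check does not bear on the noise of low values. Ratios carry no pseudocount. Start sites came from GENCODE vM1 and sequences from NCBIM37 (mm9), without exons of coding genes. A peak was assigned by its midpoint. The 10 genes are all described, and of each other list the counts, the median and the highest and lowest gene. The 10 genes and the lists were chosen with earlier results of these data known. *Glra2*, *Srrm4*, *Tubb3*, *Esrp1*, *Dlg4* and *Acta1* were named after their values were seen. Some genes that these rules name are not reported here. Python 3.11.15, numpy 2.4.6, pandas 2.3.3 and matplotlib 3.10.9 were used.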

Additional observations from a re-analysis of the deposited data

Results flagged for a closer look

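*Elavl3* moved past 2-fold in opposite directions in the 2 clones: day 6 EBs over ES cells gave a log2 ratio of 3.16 in the libraries labelled WT and -1.28 in those labelled KO. With 1 library on each side, the difference was not tested. The KO-labelled day 6 value, 0.959 FPKM, lies under the 1 FPKM above which a gene was counted in a library. With 1 FPKM added the ratios were 2.71 and -0.76, the latter no longer past 2-fold.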

How the results depend on the processing

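No paired analysis was possible because the labels give no replicate numbers and each condition has 1 library. No result reversed. Of the alternatives for the counts and the ratio of *Ptbp2* over *Ptbp1*, 36 moved a value beyond the limit used (1.5 times for a count) and 210 did not, and of those for single log2 ratios 38 crossed the 2-fold line and 522 did not. At day 4, the 3 genes lower in the library labelled KO became 0 with 1 FPKM added, 5 at 1.5-fold and 1 at 3-fold, and 1 gene was higher without the filter on low values. At day 6 the 8 lower genes became 3 when both libraries had to exceed 1 FPKM, a rule that leaves out 5 of the 10 genes. Other counts under that rule can also rest on fewer genes, and shares of all genes under the alternatives are not given. In spinal column the 5 became 3 with 1 FPKM added and 1 at 3-fold. At day 2, 1 was higher at 1.5-fold. In the WT-labelled stages, day 2 over ES gave 1 lower and 2 higher at 1.5-fold and 1 higher without the filter. Day 4 over day 2 gave 1 lower without the filter, and its 5 higher became 3 with 1 FPKM added, 2 above 1 FPKM in both and 2 at 3-fold. Day 6 over day 4 gave 2 lower at 1.5-fold. The 7 higher of day 6 over ES became 3 above 1 FPKM in both, where 4 of the 10 genes are left out. In the KO-labelled stages, day 2 over ES gave 1 lower without the filter, and its 1 higher became 0 with 1 FPKM added, 3 without the filter, 0 above 1 FPKM in both, 2 at 1.5-fold and 0 at 3-fold. Day 4 over day 2 gave 1 lower when centred, without the filter or at 1.5-fold, and 1 higher with upper quartile scaling, 1 without the filter and 2 at 1.5-fold. Day 6 over day 4 gave 1 higher without the filter. Day 6 over ES gave 1 lower with 1 FPKM added, above 1 FPKM in both or at 3-fold, and 1 higher without the filter. In spinal cord the 8 higher became 4 above 1 FPKM in both, where 4 of the 10 genes are left out. With scores above the list median, 5 of 9 genes kept a POL2 peak, and *Nova1*, whose single TAF9B peak scored 60.4, alone lost its TAF9B peak. The shares of all genes that kept a peak are not given, so these counts cannot be compared with them. Depth is unknown, so what it limits could not be computed, and values under 1 FPKM carry the least precision.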
